A study of Ovis aries with 10 samples.

Results

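The circular RNAs (circRNAs) of NEB, the gene of the giant thin filament protein nebulin, were taken as all circRNAs whose host gene is named NEB in the deposited table and which have an entry in a library of the series. There were 51 of them among 8721 circRNAs, with 1695 of 445393 junction reads (0.381%). A junction read crosses the back-splice, where the end of a downstream exon is joined to the start of an upstream exon. The series compares female small-tailed Han sheep after sham surgery (STH, 5 libraries) with ovariectomized sheep of the same breed (OR-STH, 5 libraries), to study estrogen in muscle growth. The labels give longissimus dorsi, a back muscle, as tissue and primary myoblasts as cell type, and an estradiol series that no sample's own labels carry. No age is given, and the labels do not tie a library to an animal of its own, so the p-values here reflect how much these libraries vary, which may be technical.

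Nebulin runs along the actin filament of the skeletal muscle sarcomere and is anchored in the Z disc by its C-terminal end. It is built almost wholly from short actin-binding repeats encoded by many similar exons, it sets the length and stability of thin filaments, and recessive mutations in NEB cause nemaline myopathy. Exons near the 3′ end, which encode the repeats at the Z disc, are alternatively spliced between muscles and stages. A circRNA forms when such exons are closed on themselves by back-splicing, and it lacks the free ends through which linear RNA is degraded.

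Libraries held 35731 to 67061 junction reads and listed 2559 to 3543 circRNAs, and ovariectomized replicate 5 was the deepest. The smallest listed count is 2, the rule by which a library lacks an entry is not given in the sources used here, and a missing entry was counted as 0. Of 12 mature muscle fiber markers, 8 hosted a circRNA, TTN, RYR1 and ATP2A1 among them, but not MYH4, MYH7, CACNA1S or PYGM. TTN alone gave 12696 of the 13959 junction reads of these markers, while CKM, ACTA1 and MYH1 had 2 each. Of 10 markers of proliferating myoblasts, including PAX7, MYOD1 and MKI67, 0 hosted a circRNA. Thus no gene that would define the labelled myoblasts was seen among the hosts, although hosting a circRNA is not a measure of a gene's expression. Of 6 endothelial genes 4 hosted a circRNA, the same share as of the fiber markers, with fewer reads (12 to 31 summed reads in sham and 14 to 43 in ovariectomized libraries, against 1202 to 1795 and 1240 to 1446 for the fiber markers). Of 8 fibroblast genes 1 did, with 5 reads in all, and of 6 adipocyte and 6 immune genes 0 did. A change in the share of muscle fibers and a change in NEB RNA per fiber could not be told apart in such bulk samples.

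The NEB circRNAs spanned 193.8 kb of chromosome 2, from 157851484 to 158045309 in the coordinates of the file, whose genome build is not given in the sources used here. The plus strand held 48 of them and 99.3% of the reads, so higher coordinates lie nearer the 3′ end of the gene. Another 3, with 12 reads in all, were listed on the minus strand. The file marks 50 as exonic and 1 as intronic. Their reads were concentrated near the 3′ end: circRNAs that start 160 to 180 kb from the first NEB circRNA numbered 16 and held 1275 reads, or 75.2% of the total. A single circRNA, novel_circ_0002904, gave 906 of these, and without it the same stretch held 369 of 789 reads (46.8%). The first 20 kb held 6 circRNAs and 4.84% of the reads, and the last stretch, from 180 kb on, held 9 and 4.54%. No NEB circRNA lay between 157972173 and 157998142, a stretch of 26.0 kb and the longest such gap.

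**Figure D1:**
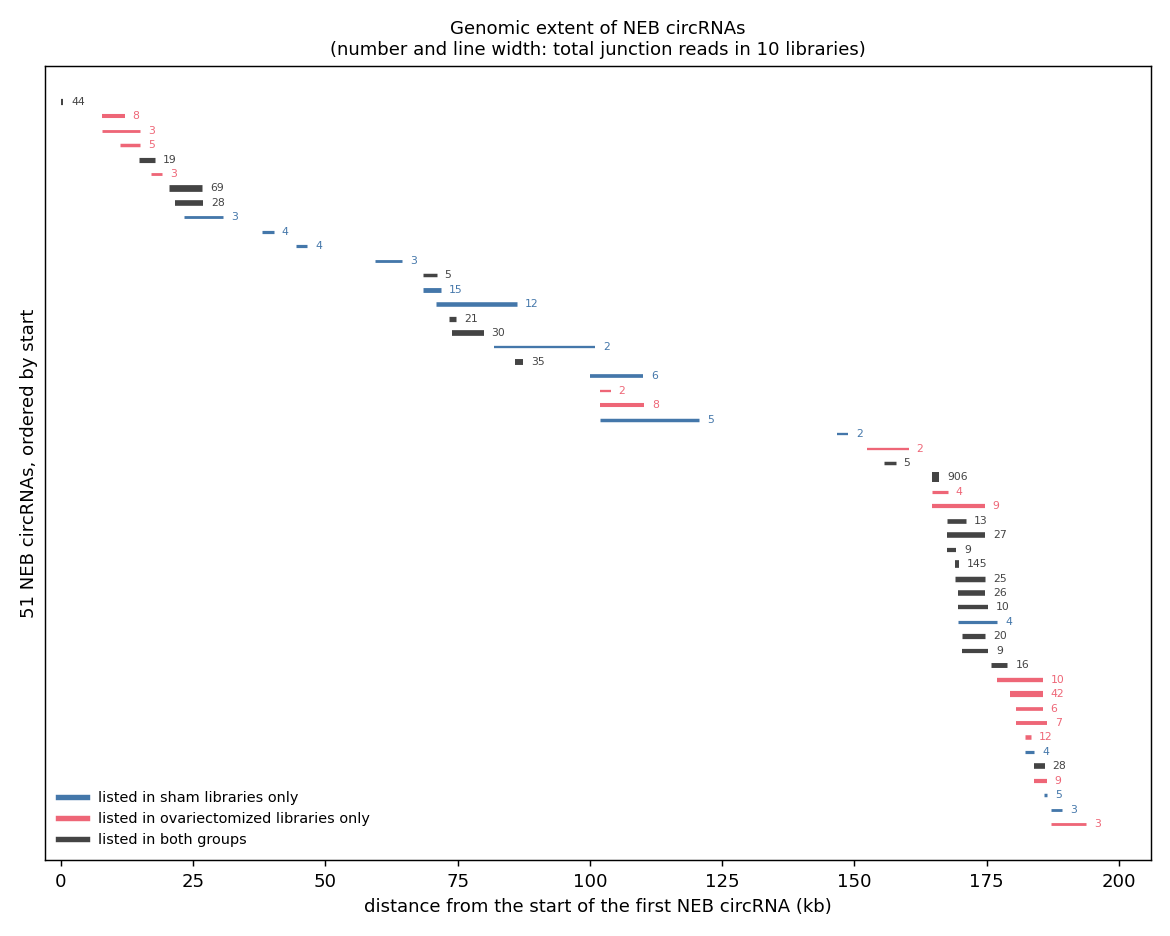
Genomic extent of the 51 NEB circRNAs, ordered by start on the vertical axis, against the distance in kb from the start of the first one. Line width and the number beside each line give its junction reads over 10 libraries, and colour gives the groups that list it. The line with 906 reads lies near 165 kb, within a cluster that reaches to about 175 kb, and no line crosses the gap from 120.7 to 146.7 kb.

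Most of the NEB circRNAs were rare. The median was 9 junction reads over 10 libraries, and 31 of the 51 had at most 10 reads. A single library listed 26 of the 51, with 9.44% of the reads. Among all circRNAs, the share listed in a single library was 37.5%, and among the 125 of TTN, the gene of the sarcomeric spring titin, it was 60.0%. Of the 26, 11 were in a sham and 15 in an ovariectomized library. Both groups listed 21, sham alone 14 and ovariectomized alone 16. A circRNA of a single library is confined to its group by that alone, as were 11 of the 14 and 15 of the 16. Of the 25 in more than 1 library, 3 were confined to sham and 1 to ovariectomized libraries. The share of all circRNAs confined to a group was not counted, so NEB cannot be set against the series in this. Just 4 reached 5 or more libraries, and 1 was in all 10. The 10 with the most reads held 79.9% of the total.

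The exons in these circles were short and often of equal length. The file's intervals give 72 distinct exon pieces, some of which overlap, of 84 to 312 bp with a median of 105.0 bp. Of these, 61 have a length that is a multiple of 3. The commonest length was 105 bp, or 35 codons, in 25 pieces spread from 7.79 to 175.2 kb. The second was 93 bp, or 31 codons, in 11 pieces that all start between 175.9 and 186.3 kb, at the 3′ end. The spliced length was a multiple of 3 in 41 of 50 exonic NEB circRNAs (82.0%), in 76.4% of those of TTN and in 38.3% of all exonic circRNAs. Median spliced length was 292.0 bp, with a range of 105 to 562 bp, close to the 293.0 bp of all exonic circRNAs. In 31 of the 50 both listed ends fall on the ends of listed intervals, and in the other 19 only one end does, so that their spliced length may miss sequence. How the caller placed reads among similar exons is not given in the sources used here, and this may shift reads between NEB circRNAs.

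**Figure D2:**
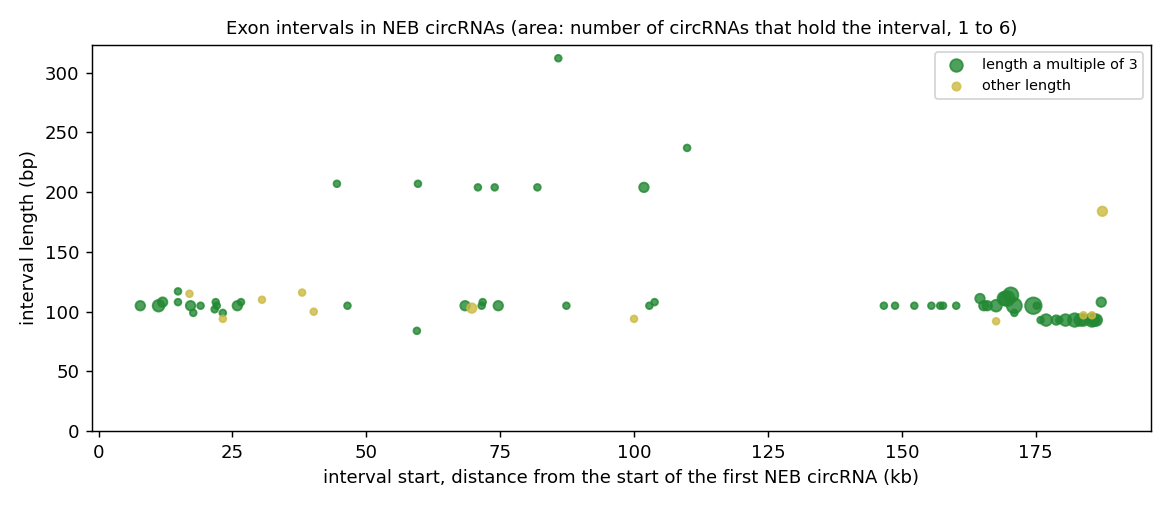
Length in bp of each exon interval in NEB circRNAs against its distance in kb from the start of the first NEB circRNA. Marker area grows with the number of circRNAs that hold the interval, and colour marks lengths that are multiples of 3. Intervals of 105 bp lie along most of the gene, while those of 93 bp lie together from 175.9 kb on.

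The leading NEB circRNA was novel_circ_0002904, from 158016096 to 158017564 on the plus strand, which joins 3 exons of 111, 105 and 105 bp into a circle of 321 bp. It had 906 junction reads and was in all 10 libraries, with 77, 88, 22, 56 and 91 reads across sham replicates 1 to 5 and 51, 196, 73, 204 and 48 across the ovariectomized ones. The 2 highest counts were ovariectomized, in replicates 2 and 4, the lowest was sham replicate 3, and the groups overlapped. Scaled between libraries, its normalized level averaged 75.4 ± 35.0 junction reads in the sham group and 107.2 ± 76.2 after ovariectomy (SD over n = 5). It was the 1 NEB circRNA that passed the filter of the limma voom fit over 738 circRNAs. Its log2 fold change of ovariectomized over sham was 0.31 ± 0.63 (SE), with an adjusted p of 0.939 in limma. The 95% interval of the fold, 0.465 to 3.29, leaves room for a fall or a rise of over 2-fold. Of the 738 circRNAs, 0 passed at an adjusted p under 0.05 (0%) and 42 (5.69%) had an unadjusted p under 0.05, 9 higher (1.22%) and 33 lower (4.47%) after ovariectomy. This NEB circRNA was in neither set. The authors' deposited table lists means of 104.1 for ovariectomized and 72.3 for sham libraries for it, with an adjusted p of 0.966. Without sham replicate 3 the estimate was -0.03, and without ovariectomized replicate 5 it was 0.77. The circle made up 26.7% to 81.0% of the NEB junction reads of a library, with means of 48.1% ± 12.2 in the sham group and 52.2% ± 25 after ovariectomy (SD over n = 5, exact permutation p = 0.746). Over only the NEB circRNAs listed in at least 5 libraries, its mean share was 13.6 percentage points higher after ovariectomy, with an exact p of 0.206.

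Only 2 other NEB circRNAs use the start of novel_circ_0002904, and both were rare. The first, novel_circ_0002905, ends at 158019198 and had 4 reads in ovariectomized replicate 2. The second, novel_circ_0002906, ends at 158026169 and had 9 reads in ovariectomized replicate 1. No other NEB circRNA used its end at 158017564.

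The second by reads was novel_circ_0002912, from 158020619 to 158021258, a circle of 2 exons of 111 bp each. Its 145 reads came from only 3 libraries, with 59 and 46 in sham replicates 1 and 5 and 40 in ovariectomized replicate 5. There it made up 38.6%, 21.0% and 28.8% of the NEB reads, against no entry in the other 7 libraries, which include both groups. Non-junction reads at novel_circ_0002912, which are reads taken to lie at the ends of a circRNA without crossing its junction, numbered 14956, 10134 and 6436 in these 3 libraries. Its start is shared by novel_circ_0002913, with 12 and 9 reads from ovariectomized replicates 1 and 3 and 4 from sham replicate 5.

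Just downstream, 5 NEB circRNAs share an end at 158026169, more circRNAs than share any other start or end. They are novel_circ_0002906, novel_circ_0002910, novel_circ_0002913, novel_circ_0002914 and novel_circ_0002917, with 107 reads together. These reads came from sham replicate 5 (26) and ovariectomized replicates 1 (45), 3 (24) and 5 (12), and none of the other 6 libraries listed any of the 5. The exon that ends there, of 105 bp, was held by 6 NEB circRNAs, more than any other interval. Sham replicate 5 and ovariectomized replicate 3 had 9 NEB circRNAs in common, the most of any of 45 pairs of libraries, where the median was 3. Over the gene as a whole 36 distinct starts and 41 distinct ends were used, and 31 of the 51 circRNAs shared a start or an end with another.

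**Figure D3:**
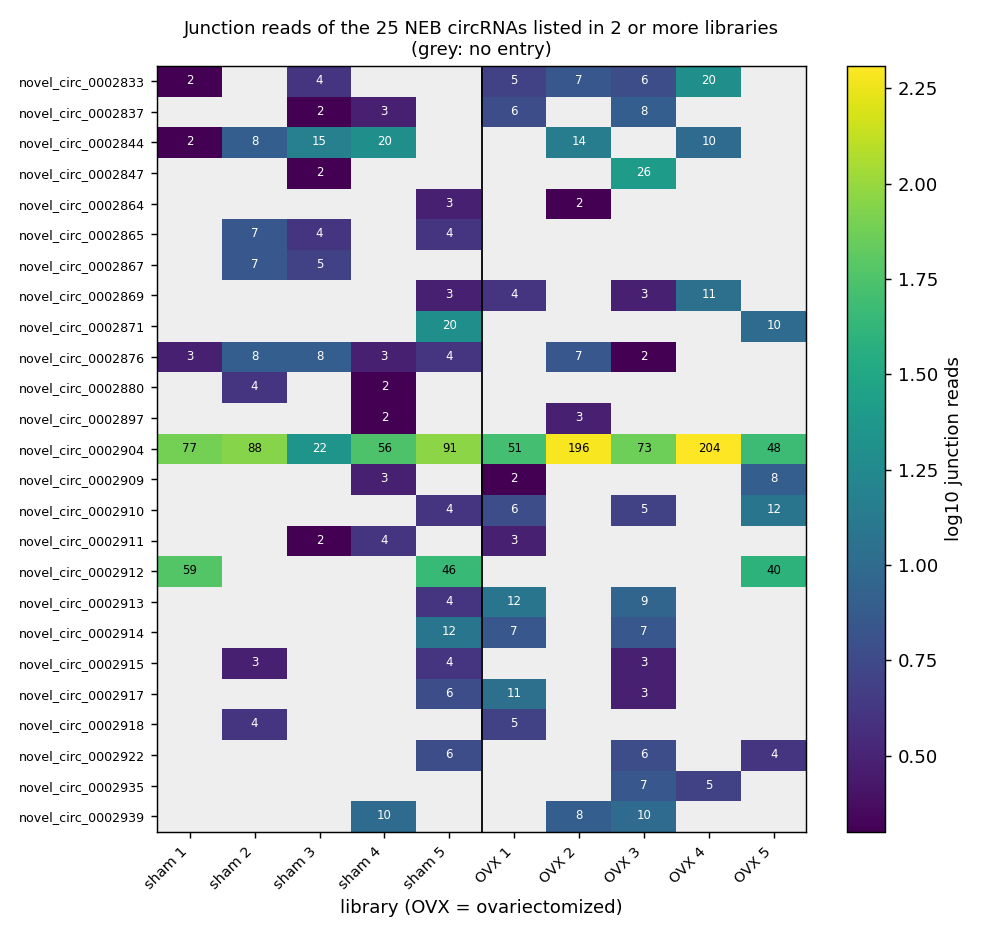
Junction reads of the 25 NEB circRNAs listed in 2 or more libraries (rows, ordered along the gene) in the 10 libraries (columns). Numbers and colour give the reads, and grey cells have no entry. One row, novel_circ_0002904, is filled in all libraries, while novel_circ_0002912 appears in 3 libraries only.

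At the 3′ end, 8 NEB circRNAs are listed with exons of 93 bp only, at spliced lengths of 186 to 372 bp. For the longest of them, novel_circ_0002932, the listed exons do not reach its end, so its length may miss sequence. Together the 8 had 88 reads in 7 libraries, and 5 of the 8 were in a single library. The best supported, novel_circ_0002939 (158035410 to 158037494, 279 bp), was listed with 8 and 10 reads by ovariectomized replicates 2 and 3 and with 10 by sham replicate 4. The longest NEB circle, novel_circ_0002929 (158030911 to 158037106), has 6 exons and 562 bp. All of its 42 reads came from ovariectomized replicate 1, where they were 22.0% of the NEB reads. The shortest exonic span was that of novel_circ_0002943, at 502 bp, with 5 reads in sham replicate 4.

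In the 5′ part, novel_circ_0002844 (157871892 to 157878187, 312 bp) had 2, 8, 15 and 20 reads in sham replicates 1 to 4 and no entry in sham replicate 5. In the ovariectomized group it had 14 and 10 in replicates 2 and 4 and no entry in the other 3. Near it, novel_circ_0002847 (157873158 to 157878386) had 26 reads in ovariectomized replicate 3 and 2 in sham replicate 3. Both are listed with 3 exon intervals that reach only 1 of their listed ends, so the listed lengths may miss sequence. The groups overlapped in each. For novel_circ_0002844 normalized reads averaged 9.62 ± 8.46 in the sham group and 4.58 ± 6.58 after ovariectomy (SD over n = 5, exact permutation p = 0.317). The log2 ratio of these means was -1.07, and -2.15 without ovariectomized replicate 2.

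The single intronic NEB circRNA, novel_circ_0002833, is the first along the gene, from 157851484 to 157851954, with a length of 471 bp. It had 2 and 4 reads in sham replicates 1 and 3 and no entry in the other 3 sham libraries. In ovariectomized replicates 1 to 4 it had 5, 7, 6 and 20 reads, with no entry in replicate 5. Its normalized level was 1.38 ± 1.99 reads in the sham group and 7.19 ± 6.32 after ovariectomy (SD over n = 5). The groups overlapped only through the missing entry of ovariectomized replicate 5, and the exact permutation p was 0.0635. The log2 ratio of the means was 2.38, and 3.47 without sham replicate 3. It had 34.2 non-junction reads per junction read, the lowest ratio among NEB circRNAs.

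Towards the middle of the gene, novel_circ_0002876 (157937341 to 157938954, 417 bp) joins an exon of 312 bp, the longest in the set, to one of 105 bp. All 5 sham libraries listed it, with 3, 8, 8, 3 and 4 reads, against ovariectomized replicates 2 and 3 only, with 7 and 2. Its normalized level was 5.83 ± 3.06 reads in the sham group and 1.85 ± 3.09 after ovariectomy (SD over n = 5), with an exact permutation p of 0.103. The groups overlapped through ovariectomized replicate 2, and the log2 ratio of the means was -1.66 with it and -3.46 without it. It was below the filter of the fit, as were 50 of the 51 NEB circRNAs. With a looser filter, at least 5 libraries of 2 or more reads, 4 of 2690 circRNAs passed (0.149%), none of NEB. In that limma fit the adjusted p was 0.587 for novel_circ_0002876, 0.713 for novel_circ_0002844 and 0.773 for novel_circ_0002833. Spanning it, novel_circ_0002873 has the longest span, 19055 bp, with 2 reads from sham replicate 3. The shortest listed length, 105 bp, belongs to novel_circ_0002869, listed with 3 reads by sham replicate 5 and with 4, 3 and 11 by ovariectomized replicates 1, 3 and 4, and to novel_circ_0002905. In both, the listed exon does not reach the listed start, so this length may miss sequence. Overlapping novel_circ_0002869, novel_circ_0002871 had 20 reads from sham replicate 5 and 10 from ovariectomized replicate 5.

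Summed over all its circRNAs, NEB had 66 to 219 junction reads in a sham and 139 to 255 in an ovariectomized library. As a share of all junction reads these were 0.414%, 0.372%, 0.132%, 0.274% and 0.475% for sham replicates 1 to 5 and 0.461%, 0.627%, 0.443%, 0.537% and 0.207% for the ovariectomized ones. The lowest share of all was that of sham replicate 3, the highest that of ovariectomized replicate 2, and the groups overlapped. The 95% Wilson intervals were 0.104 to 0.168% at sham replicate 3 and 0.416 to 0.542% at sham replicate 5, and 0.176 to 0.245% at ovariectomized replicate 5 and 0.555 to 0.709% at ovariectomized replicate 2. The lowest and highest intervals within each group did not overlap, so replicates of 1 group differed by more than counting error, which is all that these intervals cover. Mean shares were 0.334% ± 0.134 for the sham group and 0.455% ± 0.156 after ovariectomy (SD over n = 5), a difference of 0.121 percentage points with an exact two-sided permutation p of 0.222. Without ovariectomized replicate 5 the difference was 0.183 and the exact p 0.0476. With novel_circ_0002904 left out of the NEB reads it was 0.028, with an exact p of 0.627.

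The limma voom fit of reads summed per host gene gave NEB a log2 fold change of 0.33 ± 0.34 (SE), with an adjusted p of 0.855. Normalized reads averaged 151.6 ± 62.5 in the sham group and 189.8 ± 62.8 after ovariectomy (SD over n = 5). The 95% interval of the fold was 0.761 to 2.09. Of 753 hosts, 0 passed at an adjusted p under 0.05 (0%), and 45 (5.98%) had an unadjusted p under 0.05, 12 higher (1.59%) and 33 lower (4.38%), NEB not among them. The estimate was 0.09 without sham replicate 3 and 0.61 without ovariectomized replicate 5, and with novel_circ_0002904 left out of the sum it was 0.04. Sham replicates listed 8, 9, 10, 12 and 16 NEB circRNAs and ovariectomized replicates 17, 11, 16, 6 and 8, with means of 11 ± 3.16 and 11.6 ± 4.83 (SD over n = 5, exact permutation p = 0.889). The deepest library, ovariectomized replicate 5, was among the 3 that listed 8 or fewer. Counting only entries of at least 5 reads, scaled to the median library, the ovariectomized mean was higher by 4.0, with an exact p of 0.0873. The authors' deposited table gives 0 of the 51 NEB circRNAs a p under 0.05, where 1.35% of all circRNAs have one, and its smallest p for NEB is 0.062, for novel_circ_0002865. That circle of 316 bp (157919927 to 157923327) was listed with 7, 4 and 4 reads by sham replicates 2, 3 and 5 and has no ovariectomized entry. By adjusted p in the authors' deposited table the count is 0 of 51, against 0.0115% of all circRNAs.

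**Figure D4:**
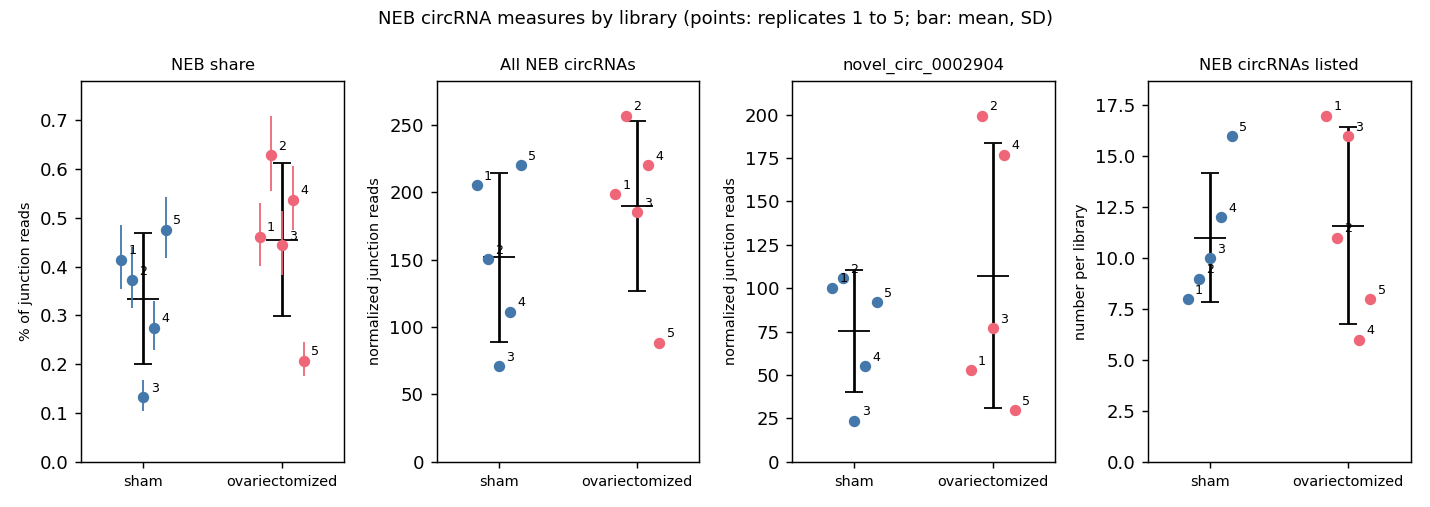
NEB circRNA measures in each library: share of junction reads with 95% Wilson intervals, normalized junction reads of all NEB circRNAs and of novel_circ_0002904, and the number listed. Points are replicates, numbered 1 to 5, and black bars give the mean and SD of each group. The groups overlap in all 4 panels, and ovariectomized replicate 5 and sham replicate 3 are the lowest of their groups in the first 3.

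Non-junction reads were far more numerous than junction reads over NEB. In its 107 entries, the exonic NEB circRNAs had 2062 to 17837 non-junction reads, with a median of 10629. For novel_circ_0002904 there were 133.7 per junction read, against a median of 8.35 over 804 circRNAs with both kinds of read in all 10 libraries, and 21 of those had a higher ratio. CircRNAs listed with 93 bp exons only had 2138 to 12925 non-junction reads with a median of 5082. Those listed with 105 bp exons only had 7234 to 12846 with a median of 10482. Both classes may hold other exons, since the listed exons of some members do not reach an end. These are novel_circ_0002932 in the first class and novel_circ_0002835, novel_circ_0002869, novel_circ_0002905 and novel_circ_0002913 in the second. Summed over NEB, the sham libraries had 1.83, 1.42, 0.566, 0.876 and 1.48 junction reads per 1000 non-junction reads, and the ovariectomized ones 1.13, 2.50, 1.08, 5.75 and 4.17. The 3 highest were ovariectomized replicates 2, 4 and 5, while replicates 1 and 3 lay within the sham range. The difference in mean log2 ratio was 1.05, with an exact permutation p of 0.119. The sum counts a read once for each circRNA it lies at and depends on which circRNAs a library lists.

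Ovariectomized replicate 5 stood apart in these reads. It had 3705 non-junction reads at novel_circ_0002904, where the other 9 libraries had 10159 to 16434. At each of the 6 NEB circRNAs it shares with another library, its unscaled count was the lowest. These are not 6 separate observations, since some of them overlap and novel_circ_0002871 was otherwise listed only by sham replicate 5. Sham replicate 5 was itself the lowest at 8 of the 13 NEB circRNAs it shares with another library. By scaled non-junction reads, ovariectomized replicate 5 was the lowest of 10 libraries at 183 of the 804 circRNAs (22.8%). Scaled by the 804 circRNAs, its value at novel_circ_0002904 was 0.312 times the mean of the other libraries, a ratio that 14 of the 804 (1.74%) had or went below, and the median ratio was 0.989. Among other muscle genes the ratio ranged from 0.362 to 0.563 over 5 circRNAs of TTN, was 0.35 at MYOZ2, which encodes a Z disc protein, 0.557 at MYPN and 0.599 at LDB3. It was 0.76 at WASL, 0.82 at RYR1, 0.901 to 1.11 over 3 circRNAs of MYBPC1, 1.01 at ACTN2, 1.12 at CAPZB, which encodes a subunit of the actin-capping protein of the Z disc, and 1.32 at ATP2A1, the gene of the fast calcium pump of the sarcoplasmic reticulum. The scaled non-junction reads at novel_circ_0002904 averaged 13651 ± 2373 in the sham group and 10219.5 ± 3878 after ovariectomy (SD over n = 5), a difference of -0.52 in mean log2 value with an exact permutation p of 0.135. The difference was -0.21 without ovariectomized replicate 5. With summed non-junction reads as the scale it was -0.59, with an exact p of 0.0159. The library measures tested by permutation were share, number listed, share of the leading circle, junction per non-junction read and non-junction reads. Over these 5, Benjamini-Hochberg adjustment of the exact p-values left none below 0.337. The exact p-values of novel_circ_0002833, novel_circ_0002844 and novel_circ_0002876 were not part of this adjustment. The smallest p that 5 against 5 libraries can give is 0.00794.

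**Figure D5:**
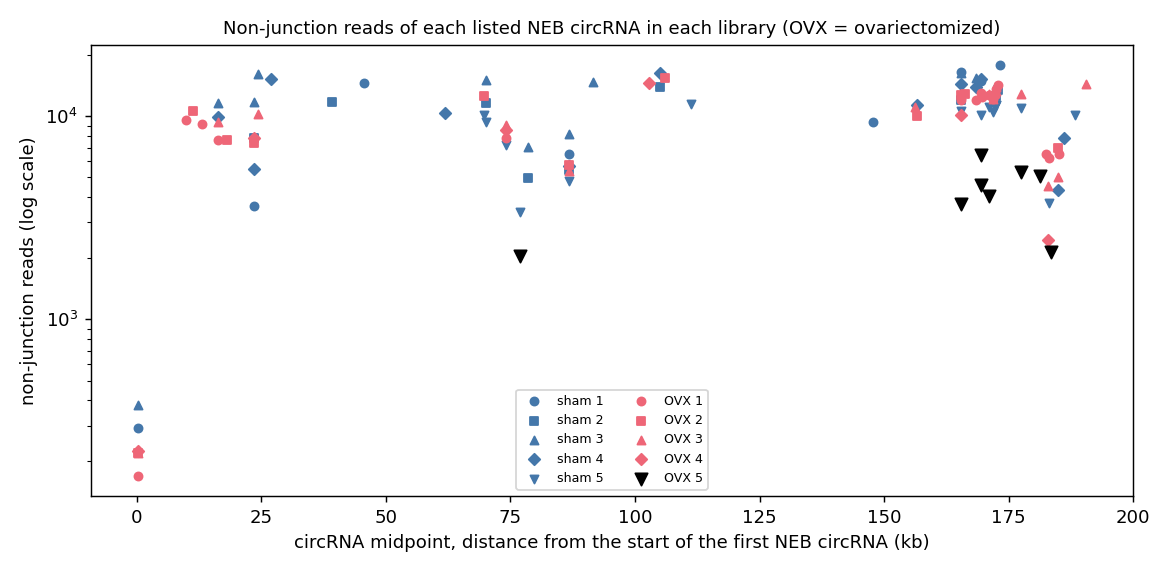
Non-junction reads, on a log scale, of each listed NEB circRNA in each library against the midpoint of the circRNA in kb from the start of the first one. Colours mark the groups and black triangles ovariectomized replicate 5, which lies below the other libraries at novel_circ_0002904, near 165 kb. The points at 170 to 378 reads on the left belong to the intronic novel_circ_0002833.

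Genes whose products work with nebulin gave few testable circRNAs, and no call. Of 22 genes of the thin filament and of nemaline myopathy, 7 hosted a circRNA and 0 were tested. TPM1, a tropomyosin gene, had the most reads of these at 270, ACTA1, the skeletal actin gene, had 2, and NEBL, the gene of the nebulin relative nebulette, had no entry. Of 23 Z disc and partner genes 14 hosted one and 6 were tested, with 0 higher and 0 lower past the threshold and a median log2 fold change of -0.15, against -0.02 over all hosts. The 3 with the most reads were ACTN2, which encodes the α-actinin that crosslinks actin in the Z disc, at -0.37 ± 0.36, MYPN, the gene of the nebulin-binding myopalladin, at -0.52 ± 0.29, and LDB3 at -0.97 ± 0.72. The estimates of the other 3 were positive, at 0.38 ± 0.56 for PALLD, 0.11 ± 0.63 for MYOZ2 and 0.07 ± 0.30 for WASL (log2 fold change and SE). Of 16 thick and elastic filament genes 9 hosted one and 3 were tested, again with 0 past the threshold. These were TTN at -0.42 ± 0.19, MYBPC1, a myosin-binding protein gene, at -0.24 ± 0.28 and MYH2 at -0.67 ± 1.32 (log2 fold change and SE). The smallest limma adjusted p among these named hosts was 0.76, for TTN.

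Over the 10 libraries, the hosts whose summed normalized reads ranked most like those of NEB were LOC101109345 (Spearman's rho 0.927), LANCL1 (0.891), PRKAA2 (0.867), PCNX1 (0.83) and CCDC18 (0.83), among 752 tested hosts with a median rho of -0.04. PRKAA2 encodes a catalytic subunit of AMP-activated protein kinase. The 5 had 117 to 2624 junction reads in all and share library depth and scaling with NEB, so these values describe 10 libraries and were given no test.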

How the data were processed

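RNA from 5 sham and 5 ovariectomized sheep libraries was made into directional libraries, per the labels' protocols. HISAT2 is named in the submitters' processing notes, while for the circRNA caller, build and annotation nothing is stated in the sources read. The authors deposited whole-number counts of junction and non-junction reads, packed in lists by library name. The lists also hold 10 library names that match none of the samples, and these were left out. Libraries without an entry were entered as 0. Starts were raised by 1 so that positions count from 1. The chromosome number came from host genes in the RefSeq table of ARS-UI_Ramb_v3.0, which held the gene ID of all 51 NEB circRNAs. The authors' second deposited table gives each group's mean normalized signal, a log2 ratio with sham as numerator, and a p-value before and after adjustment. These were quoted and not retested.

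The counts were tested with limma voom (limma 3.58.1, R 4.3.3) with group as the only term, on all circRNAs or host sums with at least 10 reads, scaled to the median library, in at least 5 libraries and 15 in all. Library sizes came from the tested rows, with trimmed mean of M values factors (30% of log ratios and 5% of abundances at each end), variances were robust, and p-values were Benjamini-Hochberg adjusted at 0.05. Normalized reads are counts over these scaled sizes relative to their geometric mean. Single library measures were tested by two-sided exact permutation in Python 3.11.15. On data simulated with the same spread setting for every circRNA, the fit recovered 0.227% of 1.5-fold, 40.2% of 2-fold and 99.5% of 4-fold changes. False calls numbered 0, 15 and 37. The SE of novel_circ_0002904, 0.63, lies above the median of 0.42 over the 738 circRNAs tested.

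Named NEB circRNAs are the 10 with the most reads, those tested or in all libraries, the extremes of span and length, those not exonic and those sharing a site with the 3 most abundant. The circRNAs at the shared end 158026169, novel_circ_0002865, those of 93 bp exons and the test of non-junction reads were chosen after their values were seen. For named circRNAs below the filter the plan was to give reads with no test. The permutation tests of novel_circ_0002833, novel_circ_0002844 and novel_circ_0002876 were therefore unplanned. The members and gene lists were chosen with earlier results of these data known. Alternatives covered scaling, filters, pseudocounts, a replicate block and leaving out each library.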

Additional observations from a re-analysis of the deposited data

How the results depend on the processing

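In each of 19 alternatives 0 NEB circRNAs passed the limma threshold, but in 17 of them novel_circ_0002904 was the 1 NEB circRNA tested. The looser filter tested 4, of which 1 had an unadjusted p under 0.05, and no filter tested 51, of which 3 did (smallest adjusted p 0.417). Under the main filter 42 of all 738 circRNAs (5.69%) had one. The share over all circRNAs was not counted under the other filters, so these NEB counts cannot be set against it. The host sum of NEB kept a positive estimate in its 20 alternatives, from 0.04 to 0.61, with limma adjusted p-values of 0.646 to 0.979. Leaving out each library gave 0.09 to 0.61 for the host sum, -0.0277 to 0.77 for novel_circ_0002904, where the low value, without sham replicate 3, has the opposite sign, and 0.0711 to 0.183 percentage points for the share of junction reads, which passed an exact p of 0.05 without ovariectomized replicate 5 alone. It gave -0.75 to 2.00 for the number listed, negative without sham replicate 1 and ovariectomized replicates 1 or 3, and -3.03 to 10.5 percentage points for the share of novel_circ_0002904, negative without ovariectomized replicates 2 or 4. Outside these ranges lay the host sum without novel_circ_0002904 (0.04) and the NEB share without that circRNA (0.028). So did the number listed with at least 5 scaled reads (4.0) and the share of novel_circ_0002904 among NEB circRNAs in at least 5 libraries (13.6). With the replicate number as a block, the limma estimate was 0.32 for the host sum and 0.42 for novel_circ_0002904, with adjusted p-values of 0.938 and 0.932. The deviations of same-numbered libraries correlated at -0.11 to 0.185 over 738 circRNAs and 1 sham library of 5 matched its own number best, so the numbers were not taken to pair the libraries. Counts of at most 10 reads in 31 of 51 NEB circRNAs limit what a difference between groups could show for them.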
